A study of Homo sapiens with 4 samples.

Results

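At 2568 of 47367 shared sites, the stretch of chromosome covered by metal-response transcription factor-1 (MTF-1) peaks was at least 2 times as long in cadmium-treated MDA-MB-231 cells as in control cells. These widened sites were 5.42% of the shared sites, while 10826 sites, 22.9%, met the mirrored rule and are called narrowed, and the other 33973 are called even. The members were chosen by this ratio of covered lengths, so the lengths are a description and nothing is read from these percentages. A shared site is the union of control and cadmium peaks that overlap by at least 1 base, and its covered length in a list is the number of bases under that list's peaks. Only sites shorter than 8000 bp on chromosomes 1 to 22 and X were taken, out of 48618 shared sites of any width there. No filter on low values was applied, so every member is counted below.

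The cells were MDA-MB-231, a long-established line from human breast cancer. MTF-1 was profiled by CUT&RUN, in which an antibody against a DNA-binding protein directs a nuclease to its sites and the released DNA is sequenced. The control group was 2 biological replicates of untreated cells, and the cadmium group was 2 biological replicates of the same line carried through long culture in cadmium sulfate and kept at 10 µM, so exposure cannot be told apart from selection during culture. The replicates of each condition were merged by the authors before peak calling, and the deposited lists give only where each peak starts and ends. On these chromosomes the control list held 69283 peaks over 130.4 Mb and the cadmium list 60121 peaks over 90.9 Mb. The lists carry neither heights nor depths, so replicate error is not measurable here, and a longer peak cannot be told apart from a deeper library or a stronger signal near the caller's threshold. Every test below therefore compares classes of sites in these lists, and intervals cover counting error only, since neighboring sites are not independent.

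MTF-1 is a zinc finger protein that senses zinc and, through it, cadmium. It activates metallothionein and zinc exporter genes through short metal response elements (MREs) with a TGCACNC or TGCGCNC core. AP-1 is a dimer of FOS and JUN proteins that binds TGAGTCA or TGACTCA and is active at distal enhancers of mesenchymal-like cells such as MDA-MB-231, and forkhead factors bind sequences such as GTAAACA. A broad peak in CUT&RUN can cover a short bound motif together with flanking chromatin, so where in a peak the motifs lie was examined first.

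The hg38 reference sequence of a few widened sites shows both arrangements. The first group holds AP-1 matches in bases that only the cadmium list covered, from sites that rank highest for such matches, and from the TXNRD1 site, which has the largest ratio among the widened sites of the oxidative stress list. The run named STS lies inside the steroid sulfatase gene. All runs are written 5′ to 3′ on the plus strand, with the AP-1 matches in capitals.
ENSG00000289033, chr2:10014437-10014616: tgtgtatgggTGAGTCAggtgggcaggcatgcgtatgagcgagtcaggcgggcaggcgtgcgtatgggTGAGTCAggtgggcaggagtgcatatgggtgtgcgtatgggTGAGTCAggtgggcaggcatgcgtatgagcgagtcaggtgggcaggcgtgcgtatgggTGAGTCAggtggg
THAP4, chr2:241619933-241620042: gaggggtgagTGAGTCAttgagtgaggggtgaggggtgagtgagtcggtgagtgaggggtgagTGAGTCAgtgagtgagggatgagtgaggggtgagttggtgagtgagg
STS, chrX:7515039-7515148: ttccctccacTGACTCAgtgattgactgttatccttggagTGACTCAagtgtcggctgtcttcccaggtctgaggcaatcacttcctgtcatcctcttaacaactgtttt
HOMER2, chr15:82875491-82875600: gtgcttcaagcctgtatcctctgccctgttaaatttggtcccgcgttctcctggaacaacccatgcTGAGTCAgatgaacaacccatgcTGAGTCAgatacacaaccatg
NUP210, chr3:13351769-13351878: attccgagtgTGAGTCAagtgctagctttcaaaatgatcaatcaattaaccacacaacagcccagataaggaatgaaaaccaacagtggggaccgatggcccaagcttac
TXNRD1, chr12:104360367-104360476: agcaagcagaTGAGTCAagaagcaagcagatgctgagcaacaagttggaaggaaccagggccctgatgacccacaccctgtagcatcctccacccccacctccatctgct

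The second group, also with AP-1 in capitals, comes from bases that both lists covered, at NFE2L2 and at the pair of LAMA3 sites, and stands for the commoner arrangement.
NFE2L2, chr2:177245178-177245287: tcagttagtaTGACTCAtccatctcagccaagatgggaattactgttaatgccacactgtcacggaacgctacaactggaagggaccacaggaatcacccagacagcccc
LAMA3 first site, chr18:23828655-23828764: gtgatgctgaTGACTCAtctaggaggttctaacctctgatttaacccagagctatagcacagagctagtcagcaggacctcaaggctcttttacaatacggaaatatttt
LAMA3 second site, chr18:23856646-23856755: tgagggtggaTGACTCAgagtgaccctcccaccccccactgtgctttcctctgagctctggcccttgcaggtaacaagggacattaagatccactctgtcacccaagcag

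The run at the long noncoding RNA gene ENSG00000289033 is a tandem array. Its site, chr2:10009601-10016799, held 24 AP-1 matches between positions 10010206 and 10016208, and 22 of them lay in the added bases. Spacings of 29 and 58 bp between successive matches occurred 3 times each. No other widened site came near that number, with 4 matches in the added bases at THAP4 and 3 at the next ranked sites. Of all widened sites, 2137 had no AP-1 match in the added bases, 372 had 1, 48 had 2, and 9 had 3.

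Widening was mostly the growth of a narrow peak into a peak of moderate width. The control list covered 599 bp of the median widened site, with quartiles of 399 and 799 bp, and the cadmium list covered 1399 bp, with quartiles of 999 and 2199 bp. The median ratio was 2.50, the upper quartile was 3.01 and the largest was 21.1. A ratio of at least 3 was found at 873 sites, of at least 5 at 167 and of at least 10 at 8. In sum, the widened sites held 1.68 Mb in the control list and 4.45 Mb in the cadmium list, with 2.82 Mb covered in cadmium only and 0.0544 Mb covered in control only. The peak caller works in bins of 200 bp, and the control peaks of 324 widened sites filled 1 bin, those of 860 filled 2 and those of 591 filled 3. With 1 bin fewer in cadmium, 862 of the 2568 sites, 33.6%, would have missed the ratio of 2, and with 1 bin more 1645 even sites would have met it.

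**Figure D1:**
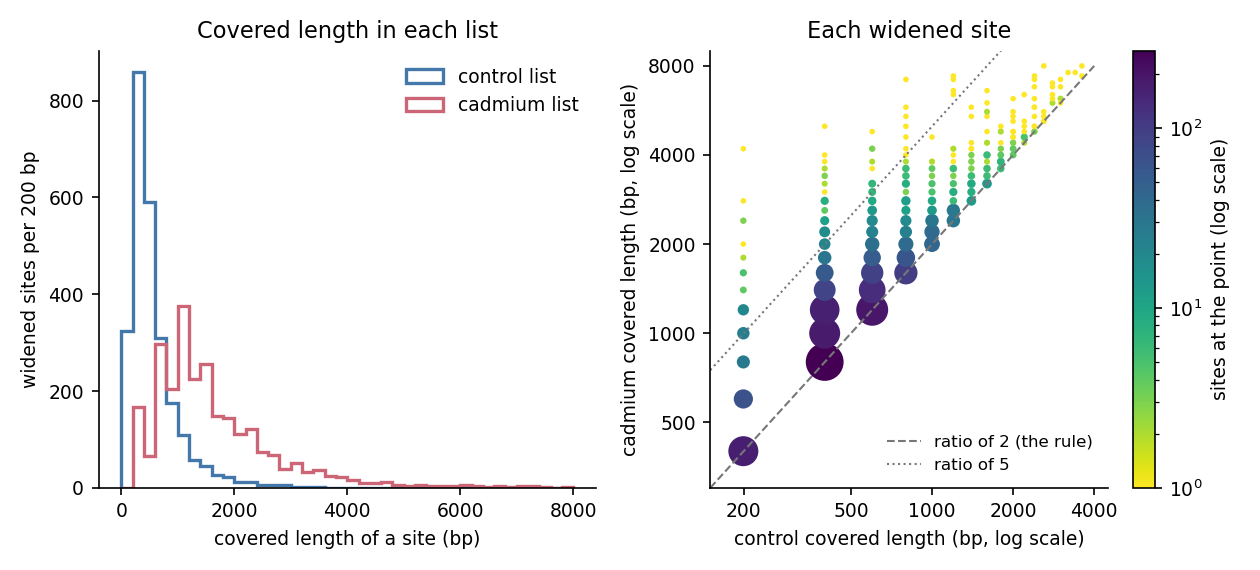
Left, the number of widened sites by covered length in bp, in bins of 200 bp, for the control and the cadmium list. Right, the cadmium against the control covered length of each widened site on log scales, with the area and color of a point showing how many sites share it and lines at ratios of 2 and 5. The control lengths center on 599 bp and the cadmium lengths on 1399 bp, and 167 sites lie on or above the line for a ratio of 5.

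In nearly all members a single peak grew, and single peaks were about as usual in the other classes. Each list held 1 peak at 2473 widened sites (96.3%), beside 95.1% of even and 95.4% of narrowed sites. At 92 widened sites a single cadmium peak spanned 2 or more control peaks. The added bases lay on a single side of the control peak at 1464 sites (57.0%), on both sides at 1084 (42.2%) and only between control peaks at 20. The larger side was at most 1.5 times the smaller at 328 sites (12.8%). Peaks grow in bins of 200 bp and the median site added 800 bp, which limits how evenly the added bases can split. The center of the cadmium extent lay outside every control peak at 1891 sites, 73.6%. The rule itself sets much of this share. Any single peak that grew on 1 side only, to a ratio of at least 2, has its center there. Either direction along the chromosome was about as frequent, with more added bases at lower coordinates at 1184 sites and at higher coordinates at 1154. At the 444 members within 1 kb of a transcription start site (TSS), 46.8% of added bases were upstream of the closest TSS, beside 48.0% of the removed bases at narrowed sites of the same kind.

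Widened sites were mainly distal. A TSS lay within 1 kb of the site center at 17.3% of widened sites (444 of 2568, 95% Wilson interval 15.9 to 18.8%), at 37.0% of even sites (36.4 to 37.5%) and at 20.4% of narrowed sites (19.6 to 21.2%). Set against even sites, the odds ratio for widened sites was 0.357 (0.321 to 0.396, two-sided Fisher's exact test, Benjamini-Hochberg adjusted p = 3.78e-98 over 32 tests), and it stayed between 0.300 and 0.507 in each alternative tried. The difference from narrowed sites was small, with an odds ratio of 0.816 (0.730 to 0.914, adjusted p = 0.00110, the same exact test), and it was not seen between sites of like width, where the Mantel-Haenszel odds ratio was 1.00 (0.894 to 1.13), though among sites of like width and GC content it was 0.816 (0.718 to 0.927). The median distance to the closest TSS was 7020 bp at widened, 6363 bp at narrowed and 3502 bp at even sites. Over 10 kb from every TSS lay 1008 widened sites, 39.3%, beside 38.4% of narrowed and 30.7% of even sites. Any base of an exon was overlapped by 31.3% of widened sites, 38.4% lay in introns without touching an exon and 30.2% lay outside annotated genes. The same shares were 36.9%, 37.3% and 25.8% at narrowed sites and 47.5%, 30.1% and 22.4% at even sites.

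The sequence at the center of widened sites was that of distal sites as well. CpG-rich centers, with a GC content of at least 50% and an observed over expected CpG ratio of at least 0.6 in 500 bp, made up 4.71% of widened, 24.0% of even and 6.33% of narrowed sites. The odds ratio was 0.157 (0.130 to 0.188) against even sites and 0.732 (0.6004 to 0.893) against narrowed sites, with adjusted p of 5.82e-147 and 0.00449 by Fisher's exact test. Between sites of like width the Mantel-Haenszel odds ratio against narrowed sites was 0.980 (0.7994 to 1.202), and the call was lost. The median GC content of this window was 47.8% at widened, 50.2% at even and 45.8% at narrowed sites. The center of the cadmium extent lay outside every control peak at 73.6% of widened sites, so the window often held added bases. In bases that both lists covered, the mean GC content was 51.8% at widened, 52.9% at even and 50.5% at narrowed sites, which was not tested. The CpG-rich shares were taken in the central window only. Motifs of promoter-associated factors, and of an insulator protein, followed the same order against even sites in the central 500 bp. The SP/KLF box GGGCGGG was found at 8.80% of widened and 20.2% of even sites, with an odds ratio of 0.381 (0.332 to 0.438). The ETS site CCGGAAG was found at 2.65% and 6.55%, with an odds ratio of 0.388 (0.304 to 0.496), and the insulator protein CTCF's core, searched as AGAGGGCGC, as AGATGGCGC, as AGGGGGCGC and as AGGTGGCGC, at 1.91% and 3.97%, with an odds ratio of 0.470 (0.353 to 0.627). These 3 motifs did not pass the test against narrowed sites, with odds ratios of 1.14 (0.976 to 1.33), 0.911 (0.698 to 1.19) and 1.00 (0.732 to 1.37). For the SP/KLF box this depended on the strata, since the odds ratio against narrowed sites was 1.41 (1.21 to 1.66) over site width, past the threshold, and 0.923 over GC content. The order of CTCF depended on the bases searched. In bases that both lists covered, it was found 0.0960 times per kb at widened and 0.0778 at even sites. There the SP/KLF box was found 0.523 and 0.7895 times and the ETS site 0.109 and 0.137 times, and none of these densities was tested. A TSS, an SP/KLF box and an ETS site often occur together at promoters, so these results are not independent of each other.

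**Figure D2:**
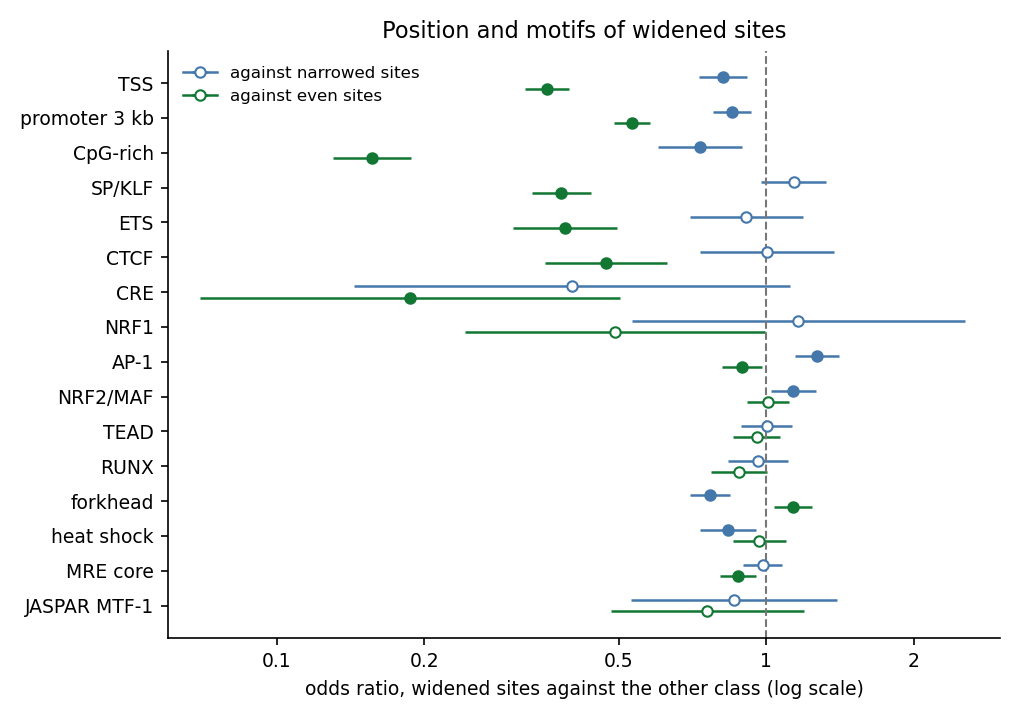
Odds ratios on a log scale for each position and motif feature of the 2568 widened sites, against narrowed and against even sites, with 95% Wald intervals as bars. Filled points have an adjusted p under 0.05 and open points do not. Features of promoters lie far to the left of 1 against even sites, from 0.157 for CpG-rich centers to 0.531 for any base within 3 kb of a TSS, and the motif odds ratios against narrowed sites lie nearer to 1, apart from 0.401 for the rare CRE.

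The place of AP-1 inside the widened sites was the clearest sequence feature. In bases that both lists covered, AP-1 was found 0.949 times per kb (1527 matches in 1609 kb), and in bases added in cadmium 0.186 times per kb (521 matches in 2800 kb). The rate ratio was 0.196 (0.177 to 0.217, exact binomial test, adjusted p = 1.95e-268 over 3 tests) and lay between 0.1799 and 0.265 in each alternative. In the 600 bp beyond either end of the sites the density was 0.111 per kb. AP-1 was found in retained bases only at 990 widened sites (38.6%), in added bases only at 223 (8.68%), in both at 208 (8.10%) and in neither at 1147 (44.7%). Position relative to the edge of the control peak showed the same contrast at finer scale. The density was 1.497 per kb from 300 to 200 bp inside that edge, 0.569 in the last 100 bp before it and 0.114 in the first 100 bp outside it. From 600 bp outside, the density in added bases lay between 0.204 and 0.349 per kb.

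The concentration of AP-1 in the retained bases was shared by narrowed and even sites. At narrowed sites the density was 0.728 per kb in retained and 0.167 per kb in removed bases. At even sites it was 0.461 per kb in bases covered in both lists, 0.157 in bases covered in cadmium only and 0.139 in those covered in control only. The retained bases of widened sites are shorter than those of even sites, and whether the classes differ in this contrast was not tested. AP-1 was slightly denser in bases added at widened sites than in bases removed at narrowed sites, with a rate ratio of 1.12 (1.02 to 1.23, exact binomial test, adjusted p = 0.0222). Without the tandem array at ENSG00000289033 the rate ratio was 1.07 (0.973 to 1.18, exact binomial test, adjusted p = 0.148), so the call was lost. It was also lost at sites over 1 kb from every TSS, with the array included (1.10, 0.988 to 1.22), and it held over strata of GC content (1.21, 1.10 to 1.33).

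Several other motifs were also denser in the retained than in the added bases of widened sites. The MRE core and the forkhead motif were not. The SP/KLF box was found 0.523 times per kb in retained and 0.208 in added bases, CTCF 0.0960 and 0.0240 times, and the TEAD site (ACATTCC or GCATTCC) 0.443 and 0.268 times, and these differences were not tested. The MRE core was found 0.984 times per kb in retained bases, 1.08 in added bases and 1.07 in the 600 bp beyond, so its density was close in all 3. The forkhead motif, searched as GTAAACA, as ATAAACA, as GTAAATA and as ATAAATA, was found 0.606 times per kb in retained and 0.758 in added bases. Bases removed at narrowed sites held it 0.982 times per kb, and the rate ratio of added against removed bases was 0.771 (0.737 to 0.807, exact binomial test, adjusted p = 5.77e-31). Among pieces of like GC content the Mantel-Haenszel rate ratio was 0.964 (0.921 to 1.01), and the added bases had a GC content of 49.8% beside 46.7% in the removed bases.

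**Figure D3:**
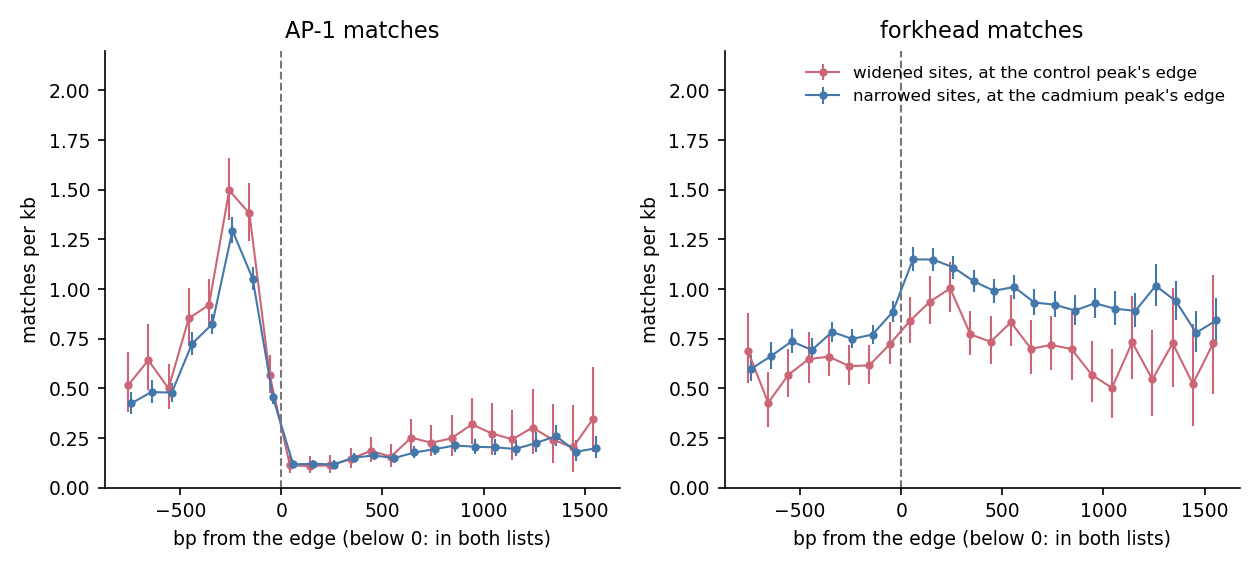
Matches per kb of the AP-1 (left) and forkhead motif (right) in steps of 100 bp from the edge of the shorter list's peak, at sites with 1 peak in each list and an extension of at least 400 bp on that side, with exact 95% Poisson intervals. Bases left of 0 are covered in both lists, and bases right of 0 in cadmium only for widened sites and in control only for narrowed sites. AP-1 at widened sites drops from 1.497 per kb inside the edge to 0.114 just outside it, and forkhead rises to 1.00 per kb from 200 to 300 bp outside.

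Counted by site, the central 500 bp gave AP-1 at 23.4% of widened (600 of 2568, 21.8 to 25.0%), 25.5% of even and 19.4% of narrowed sites, and at 24.0% of all shared sites. The odds ratio stood at 1.27 (1.14 to 1.41, Fisher's exact test, adjusted p = 3.21e-05) against narrowed sites and 0.892 (0.812 to 0.981, adjusted p = 0.0372) against even sites. These calls depended on the window and on width. Between sites of like width the Mantel-Haenszel odds ratio against narrowed sites was 1.02 (0.919 to 1.14). In 500 bp around the bases that both lists share, the odds ratio against even sites was 1.99 (1.83 to 2.16), and among sites whose shared bases are of like length it was 1.05 (0.962 to 1.15). Against narrowed sites the same stratified value was 1.13 (1.03 to 1.23). The share with AP-1 in the central 500 bp went from 46.7% of widened sites under 800 bp wide to 7.86% of those of 3200 bp or more, and in even sites from 47.6% to 10.2%.

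The forkhead motif was found in the center of 27.4% of widened, 24.9% of even and 32.9% of narrowed sites. Its odds ratio against narrowed sites was 0.768 (0.698 to 0.845, Fisher's exact test, adjusted p = 2.08e-07) and kept that direction in each alternative. Against even sites it was 1.13 (1.04 to 1.24, Fisher's exact test, adjusted p = 0.0152), and among sites of like GC content 0.893 (0.811 to 0.983), in the opposite direction. The MRE core lay in the central 500 bp of 34.1% of widened, 37.1% of even and 34.5% of narrowed sites, and the JASPAR MTF-1 string TGCACACG in 0.779%, 1.02% and 0.905%. The odds ratio for the MRE core was 0.875 (0.804 to 0.952, Fisher's exact test, adjusted p = 0.00449) against even sites and 0.983 (0.898 to 1.08) against narrowed sites. Among sites of like GC content the call against even sites was lost, at 1.05 (0.960 to 1.14). Against narrowed sites of like GC content the odds ratio was 0.881 (0.802 to 0.968), past the threshold. Over width and GC content it was 0.905 (0.820 to 0.998) and did not pass. The JASPAR string passed against neither class.

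Of the remaining motifs, the NRF2/MAF string TGACNNNGC, whose matches can overlap AP-1, was found at 21.2% of widened, 21.1% of even and 19.2% of narrowed sites. Its odds ratio against narrowed sites was 1.13 (1.02 to 1.26, Fisher's exact test, adjusted p = 0.0379), but 1.05 among sites of like width and GC content. The heat shock string GAANNTTC was found at 11.7%, 12.03% and 13.7%, with an odds ratio of 0.837 (0.733 to 0.955, adjusted p = 0.0170, exact test) against narrowed sites, and that call was lost over GC content (0.887) and over width and GC content (0.883). The CRE string TGACGTCA, the site of CREB and ATF proteins, was rare, with 4 widened sites (0.156%) beside 0.827% of even sites and an odds ratio of 0.187 (0.0697 to 0.502, adjusted p = 7.11e-05, exact test). Against narrowed sites its odds ratio was 0.401 (0.1435 to 1.12) and did not pass. TEAD, the RUNX site TGTGGTT and the NRF1 site TGCGCATGC passed the test against neither class, with shares of 15.3%, 10.2% and 0.312% at widened sites. Among sites of like GC content, TEAD, RUNX and the heat shock string did pass against even sites, with odds ratios of 0.843, 0.749 and 0.850. These shares are of the central window. In bases that both lists covered, TEAD was found 0.443 times per kb at widened and 0.341 at even sites, and RUNX 0.282 and 0.221 times. The NRF2/MAF string was found there 0.635 times per kb at widened, 0.480 at even and 0.514 at narrowed sites. For the CRE string the densities were 0.00934 at widened and 0.01715 at even sites. The heat shock string was found there 0.247 and 0.252 times, and these densities were not tested. All motifs were searched on both strands, and a match is a description of the letters, not of binding.

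Members at start sites differed in sequence from the distal members. Of the 444 within 1 kb of a TSS, 21.4% (17.8 to 25.5%) had an SP/KLF box and 15.1% (12.1 to 18.7%) AP-1 in the central 500 bp. Of the 1008 over 10 kb from every TSS, 5.16% (3.95 to 6.70%) had the SP/KLF box and 27.8% (25.1 to 30.6%) AP-1. The median ratio was 2.34 at start sites and 2.40 far from them, while the median site width was 1799 and 1399 bp.

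The share of widened sites varied widely between chromosomes. It was 11.3% on chromosome 16 (182 of 1616 shared sites, 9.81 to 12.9%), 10.4% on chromosome 22 and 9.54% on chromosome 15. It was lowest on chromosome 14 at 2.26% (31 of 1371, 1.60 to 3.19%), followed by 2.66% on chromosome 7, 2.90% on chromosome 4 and 2.92% on chromosome 11. The narrowed share ran the other way, from 10.4% on chromosomes 16 and 22 to 40.9% on chromosome 11. The lists themselves differed by chromosome, with cadmium over control covered length of 1.11 on chromosome 16, 0.993 on chromosome 22 and 0.480 on chromosome 11, and only chromosomes 16 and 22 held more cadmium than control peaks. Because the rule and this ratio use the same lengths, they cannot be told apart here. With chromosomes as strata, the odds ratios of AP-1 and forkhead motifs and of the TSS kept their direction and their side of the threshold.

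**Figure D4:**
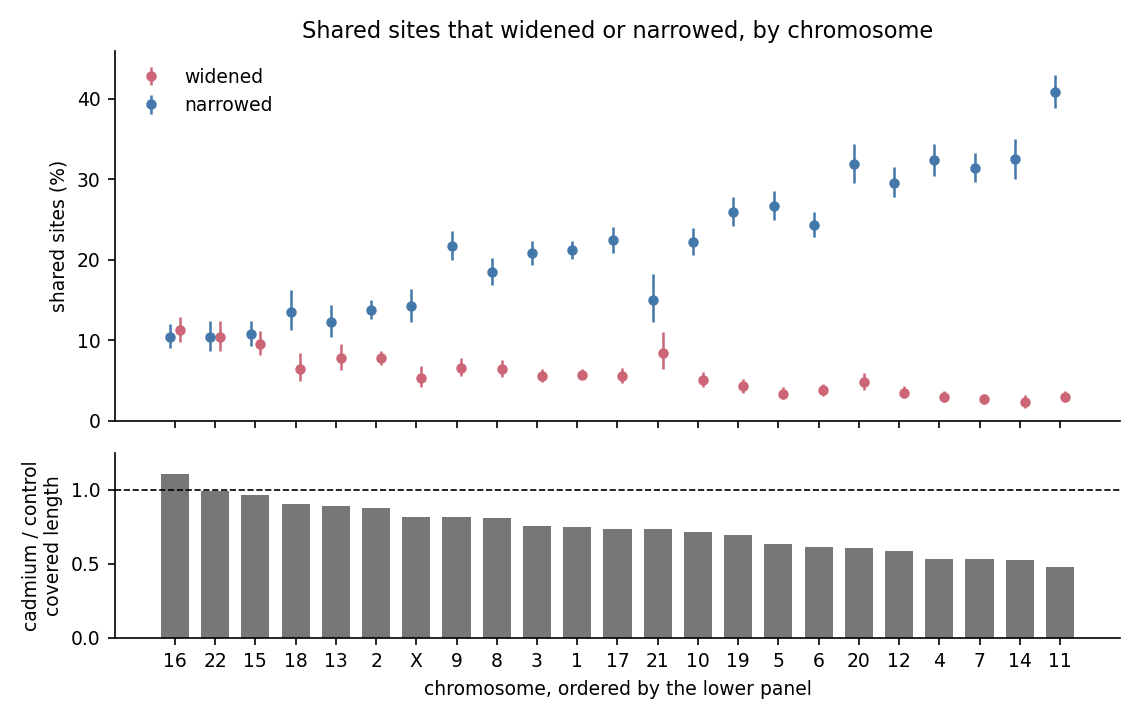
Top, the percentage of shared sites under 8000 bp that widened and that narrowed on each chromosome, with 95% Wilson intervals. Bottom, the covered length of all cadmium peaks over that of all control peaks on the chromosome, which sets the order. Widened sites make up 11.3% on chromosome 16 and 2.26% on chromosome 14, and narrowed sites 40.9% on chromosome 11.

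Widened sites also lay near each other. The next shared site along the chromosome was widened after 8.68% of widened sites, after 5.71% of even sites and after 3.74% of narrowed sites. The widened share of single chromosomes ran from 2.26% to 11.3%, and next sites were not compared within chromosomes. Of 2655 windows of 1 Mb with a shared site, 1382 held no widened site and 92 held 5 or more. The richest was 67 to 68 Mb of chromosome 16, with 14 widened of 61 shared sites and none narrowed. It was followed by 10 to 11 Mb of chromosome 2, which holds the AP-1 array and RRM2, with 13 of 49, and by 74 to 75 Mb of chromosome 15 with 11 of 54. The widened shares of these windows were 22.95%, 26.5% and 20.4%. Their chromosomes had 11.3%, 7.77% and 9.54%, and all shared sites 5.42%. The window from 56 to 57 Mb of chromosome 16, which holds the metallothionein genes, had 9 widened, 1 narrowed and 25 even sites. A gained cadmium peak lay within 5 kb of 10.9% of widened, 6.85% of even and 4.50% of narrowed sites, and a lost control peak within 5 kb of 8.33%, 12.7% and 16.9%. These counts come from the lists that chose the members, and no test was made.

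By gene, the closest TSS of the widened sites belonged to 2306 genes, of which 2114 had 1 widened site and 39 had 3 or more. PARD3, which encodes a cell polarity scaffold, had the most within its gene body, with 6 widened, 4 narrowed and 9 even sites. CAMTA1, a transcription activator gene, COL4A2, a basement membrane collagen gene, HMCN2, PRTFDC1 and TOGARAM2 had 4 each. At HMCN2, 4 of 5 shared sites widened and none narrowed, and at TOGARAM2 4 of 8. ACSBG1, which encodes a fatty acyl-CoA synthetase, and the kinase gene ALK each had 3 widened of 4 shared sites. Genes were picked here by their count of widened sites, beside 5.42% of all shared sites. TOGARAM2 and ALK share a 10 Mb bin of chromosome 2 in which 28 of 245 shared sites widened (11.4%). No test was made.

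The sites that gained the most bases were the array at ENSG00000289033, from 799 to 7199 bp, and chr16:1096801-1104199, which touches an exon and lies nearest to C1QTNF8, from 1199 to 7399 bp. At chr16:993201-1000399 and chr16:553201-559799, both near long noncoding RNA genes, the covered length went from 1199 bp to 7199 and 6599 bp. The site with the largest ratio, chr10:132505201-132509399, filled 199 bp in control and 4199 bp in cadmium. PACS1, whose product sorts membrane proteins, had an intronic site that went from 199 to 2799 bp, a ratio of 14.1. A site 8025 bp from the TSS of the carboxylesterase gene CES3 went from 399 to 4999 bp. QPRT, an enzyme gene of NAD synthesis, and PI4KA, a lipid kinase gene, each had a site that went from 199 to 2399 bp. RPTOR, which encodes the scaffold of the mTORC1 kinase complex, had a site that went from 2399 to 7199 bp, with all 4800 added bases on the lower side.

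Among members that contain a protein-coding TSS, the longest gains were at CPLX1, a synaptic vesicle fusion gene, from 2598 to 7999 bp, and at PLK3, a stress-responsive polo-like kinase gene, from 1599 to 6599 bp. RHOB, a small GTPase gene induced by stress, went from 2399 to 7399 bp, with 2000 bp added on the lower and 3000 bp on the higher side. STKLD1 went from 799 to 5399 bp. CDH15, which encodes a cadherin of muscle, went from 1599 to 5999 bp, and F7, the coagulation factor VII gene, from 2198 to 6399 bp. ALDOC, which encodes a glycolytic aldolase, went from 399 to 3799 bp, a ratio of 9.52. Each of these sites held at most 1 AP-1 match.

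**Figure D5:**
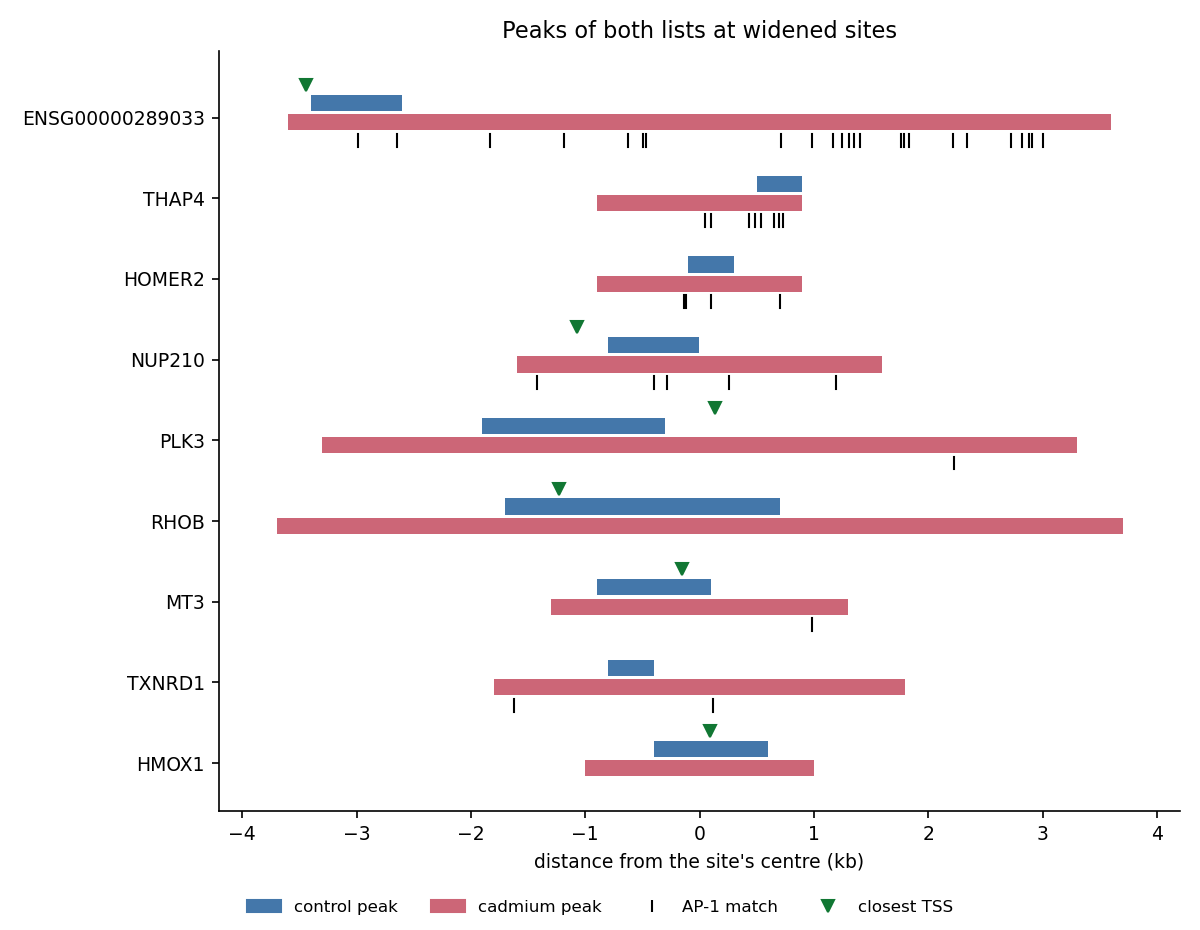
Control and cadmium peaks at named widened sites by distance from the site's center in kb, with AP-1 matches as ticks and the closest TSS as a triangle where it lies inside the site. ENSG00000289033 carries 24 AP-1 matches, 22 of them outside the control peak of 799 bp, while HMOX1 and RHOB carry none.

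At genes of metal handling the counts were small. The share of widened sites over all shared sites was 5.42%, and the counts of each list are read against it. Of 7 shared sites whose closest TSS was that of a metallothionein gene, 1 widened, none narrowed and 6 were even. The widened site lay at MT3, chr16:56588401-56590999, with 999 bp in control and 2599 bp in cadmium, and the TSS 155 bp from its center. Its bases covered in both lists held 11 MRE core matches and its added bases 2, together with a single AP-1 match in the added bases. SLC30A3, which encodes a zinc transporter that fills synaptic vesicles, was the single widened site of 7 at zinc exporter genes, from 1998 to 3999 bp. The zinc importers of the SLC39A family, some of which also carry cadmium, had 0 widened, 2 narrowed and 19 even sites. The AP-1 genes themselves had 0 widened of 23 sites and the heat shock genes 0 of 33, with 2 and 7 narrowed. Lists of this size would hold only a few widened sites at the share over all sites, so nothing is read from these zeros or from the single sites.

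NRF2 targets and glutathione genes had 6 widened of 78 shared sites (7.69%), 20 narrowed and 52 even. NFE2L2, which encodes NRF2, the main activator of oxidative stress genes, had a pair of them, one of 599 bp in control and 1199 bp in cadmium with an AP-1 match in the retained bases and one of 399 and 799 bp without. KEAP1, which encodes the adaptor that targets NRF2 for degradation, had a site that went from 399 to 1199 bp. HMOX1, the heme oxygenase gene, widened at its TSS from 999 to 1999 bp, with 600 bp added on the upstream and 400 bp on the downstream side. TXNRD1, the cytosolic thioredoxin reductase gene, had an intergenic site 27873 bp from the closest TSS that went from 399 to 3599 bp, and both of its AP-1 matches lay in the added bases. ABCC1, which encodes an exporter of glutathione conjugates, had an intronic site that went from 999 to 3199 bp. The sites at HMOX1, SLC30A3 and NFE2L2 were at the threshold of the rule, with a ratio of 2.00 each.

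TEAD targets had 7 widened of 124 sites (5.65%), and 3 of the 7 were at ASAP1. The intronic sites at TGFB2, a growth factor gene, RBMS3 and WWTR1, which encodes the coactivator TAZ, each went from 199 to 599 bp, and that at YAP1, its paralog, from 399 to 1399 bp. Genes of epithelial-mesenchymal transition and adhesion had 7 widened of 94 sites (7.45%), all at COL4A2, LAMA3 and TGFBI. At COL4A2, 4 sites within the gene widened, and the longest went from 799 to 3199 bp. The LAMA3 sites, in the gene of a laminin chain, went from 399 to 1199 bp and from 199 to 399 bp, each with its AP-1 match in the retained bases. TGFBI, which encodes a matrix protein, had an intronic site that went from 799 to 1999 bp. Receptor tyrosine kinase genes had 4 widened of 93 sites (4.30%), with PDGFRB from 999 to 2599 bp, IGF1R from 1199 to 2599 bp and ROR2 from 599 to 1199 bp and from 1599 to 4399 bp. A site at each of ASAP1, COL4A2, LAMA3 and ROR2 was at the threshold of the rule, with ratios from 2.002 to 2.005. Beside 5.42% of all shared sites, no list is called particular, and no test was made.

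The members just inside the threshold were at FADS6, from 1799 to 3598 bp, RRM2, the gene of a ribonucleotide reductase subunit, from 2999 to 5999 bp, and INPP5A, from 2599 to 5199 bp. Ranked first just outside the threshold were ENSG00000268279 on chromosome 3, from 3399 to 6599 bp, FPGS, from 2998 to 5799 bp, and ST3GAL2, from 2799 to 5399 bp. Their ratios were 2.00 for the first 3 and 1.94, 1.93 and 1.93 for the others.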

How the data were processed

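Processing used the 2 deposited peak lists, control and cadmium, which hold base positions only. Per the study's methods, the authors removed adaptors, mapped reads with Bowtie2 to hg38, pooled the 2 replicates per condition and ran Epic2 at default settings, naming no control library. The submitters' processing notes name SAMtools 1.8, deepTools and SICER 0.0.50. A last column of the lists held the same value in every row and was not used. All starts were multiples of 200 bp and peaks of a list were at least 801 bp apart. Because replicates were merged, a peak's length depends on depth and on the caller's threshold.

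Peaks were joined into sites, covered bases were split into retained, added and removed, and GENCODE 44 gave 218307 TSS positions. Motifs were searched in the reference on both strands, in 500 bp around the site center or in all covered bases. For shares, Fisher's exact test was used, two-sided, with Wald intervals, and for densities exact conditional binomial tests, with Benjamini-Hochberg adjustment over 32 and 3 tests, in Python 3.11.15 with SciPy 1.17.1. Functions were tested on simulated data. Sites were named by fixed ranks of added bases, ratio, AP-1 matches, coding start sites and gene lists. Some sites and sequences that this names are not reported here. The members and lists were chosen with earlier results of these data known. Alternatives were strata of width, GC content and chromosome, other ratios and windows.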

Additional observations from a re-analysis of the deposited data

How the results depend on the processing

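No paired analysis was possible because the replicates were merged before peak calling and the lists carry no replicate, and leaving out a replicate could not be run for the same reason. Depth is unknown, so the limit it sets on peak length cannot be given. The number of widened sites was 5278 at a ratio of 1.5 and 873 at a ratio of 3, and between 2233 and 2586 under the other definitions.

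For AP-1 against narrowed sites the odds ratio was 1.02 over width strata, 1.09 over width and GC content, 1.05 over chromosome and width, and 0.992 in the whole site, all past no threshold. Against even sites it was 1.15 in the whole site, 1.99 in 500 bp around the shared bases and 1.05 there over strata of their length. For forkhead against even sites it was 1.11 over width, 0.893 over GC content, 0.874 over both, 1.15 at a ratio of 3, 1.10 with at least 2 bins in the shorter list, 0.892 in the whole site, 1.05 around the shared bases and 0.7495 there over their length. For the TSS against narrowed sites it was 1.00 (0.894 to 1.13) over width, 0.988 at a ratio of 3 and 0.973 over chromosome and width. The AP-1 rate ratio of added against removed bases was 1.10 over 1 kb from every TSS and 1.07 without the array, and the forkhead rate ratio was 0.964 over GC strata. The cause of these shifts was not tested.

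Other odds ratios also changed direction. Against narrowed sites they were over width 0.945 for TEAD, 1.02 for ETS, 1.06 for the MRE core and 1.06 for any base within 3 kb of a TSS, and over GC content 1.03 for RUNX, 0.923 for SP/KLF, 0.974 for NRF1 and 0.889 for CTCF. Over both they were 0.952 for SP/KLF, 0.946 for NRF1 and 0.756 for CTCF. Against even sites they were 0.998 for NRF2/MAF over width, and 1.05 for the MRE core over GC content and over both. Strata of chromosome and of the length of the shared bases, the fit without the array and the strata for these other features were chosen after seeing the data.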
